A study of Homo sapiens with 9 samples.

Results

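The comparison described here sets KGN cells given 0.5 µg/ml insulin (the lower dose, 3 libraries) against solvent control (3 libraries) and 1 µg/ml insulin (the higher dose, 3 libraries) as one reference, so that 3 of the 9 libraries of the series stand against the other 6. Members were chosen by the treatment in the labels, not by any measured value. Because the lower dose lies between the other concentrations, a gene set apart in it departs from a monotonic course with dose. KGN is an established human granulosa cell tumour line, labelled as wild type and grown in DMEM with fetal bovine serum. All 3 groups shared a fast of 12 h before 72 h of treatment, so control cells were fasted too. RNA sequencing measured gene expression, and the titles number the replicates 1 to 3. Whether replicates were separate cultures is not stated in the labels, and p-values here cover only the spread among these samples, which could be technical.

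Insulin binds its receptor, a tyrosine kinase, which phosphorylates the IRS adaptor proteins and starts the PI3K, AKT and mTOR pathway. AKT keeps FOXO transcription factors out of the nucleus, SREBP factors drive cholesterol and fatty acid synthesis, and SOCS and related proteins feed back on the receptor. At high concentration insulin can also act through the related IGF1 receptor, and in granulosa cells both receptors are known to work beside FSH in growth and steroid synthesis.

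Library totals ran from 18965722 to 20446405 counts, and a count of 0 in the smallest allows up to 3 counts or 0.158 CPM (counts scaled to library size), a limit that covers counting error only. Levels below are scaled by the trimmed mean of M-values (TMM). Of 15983 genes in the table, 12697 had at least 10 counts in 3 or more libraries and were tested. Of 13 granulosa markers 12 were tested, and their levels summed to 463 to 502 CPM in control, to 468 to 496 CPM with the lower dose and to 473 to 497 CPM with the higher one. AMHR2, the receptor of anti-Müllerian hormone, was the one that did not pass, with 34 counts over all libraries. The same sums overlapped between the 3 groups for theca, epithelial, fibroblast and smooth muscle, immune and endothelial markers. Lower dose 1 stood apart within its group: a chi-square statistic over genes was 7.75 and 8.19 per degree of freedom between it and lower dose 2 and 3, and 2.17 between those. On the second principal component of log2 CPM, which held 15.8% of the variance, it lay at 15.4 and the others of its dose at -11.7 and -7.55. Counts of gene groups are therefore given with and without that library. Without that library, 512 of 12668 tested genes lay higher and 514 lower at an unadjusted p under 0.05. Those are the counts against which list members without lower dose 1 are to be read. Leaving out lower dose 2 or 3 instead also moved some list medians, with values given where the lists are summed up.

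No gene passed the test in this comparison. The lower dose was compared with the mean of the other groups by edgeR's quasi-likelihood test, adjusted by Benjamini-Hochberg across every gene tested. At an adjusted p under 0.05 it called 0 of 12697 genes (0%), and the lowest adjusted p was 0.659. At an unadjusted p under 0.05 stood 938 genes, of which 471 (3.71%) lay higher and 467 (3.68%) lower at the lower dose. DESeq2 also called 0, with 694 at an unadjusted p under 0.05. The count of 0 depended on the filter on low counts: with none, and 15983 genes tested, the same edgeR test called 6 genes higher and 3 lower, among them TMED7 (adjusted p = 0.0283) and RRAD (adjusted p = 0.0350). Differences were small throughout: the median absolute log2 fold change was 0.06, beside a median standard error of 0.07. The 95% interval stayed within 1.5-fold in either direction for 89.5% of the genes and within 2-fold for 96.6%.

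A gene can differ from the mean of the other groups because it differs from 1 of them only, so the lower dose was also required to lie beyond both at once. This stricter test, also from edgeR with Benjamini-Hochberg adjustment, called 0 genes, and 227 (1.79%) stood at an unadjusted p under 0.05. Of those, 114 lay above both groups and 113 below both, and DESeq2 gave 0 calls and 146 at the same threshold. Against control alone and against the higher dose alone, the lower dose gave 0 called genes with 774 and 716 at an unadjusted p under 0.05. The higher dose against control, the other independent direction of the design, gave 0 called genes and 296 (2.33%) at an unadjusted p under 0.05, and 172 with DESeq2.

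The lower dose had the highest group mean for 4773 genes (37.6%) and the lowest for 4631 (36.5%), and stood between the other groups for 3293 (25.9%). It was the highest or lowest group for 74.1% of genes, where control was so for 64.1% and the higher dose for 61.8%. All 3 lower-dose libraries lay above the other 6 for 233 genes (1.84%) and below them for 254 (2%). Control libraries lay outside the other 6 for 216 genes (1.70%) and higher-dose libraries for 209 (1.65%). Of the variance of log2 CPM, the lower dose against the rest held 13.6% and the higher dose against control 11.7%, with 1 degree of freedom each, and the spread within groups held 12.5% per degree of freedom. Group differences were thus about the size of differences between libraries of a group in both directions. The plot of the contrasts shows where the genes without overlap lie.

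**Figure D1:**
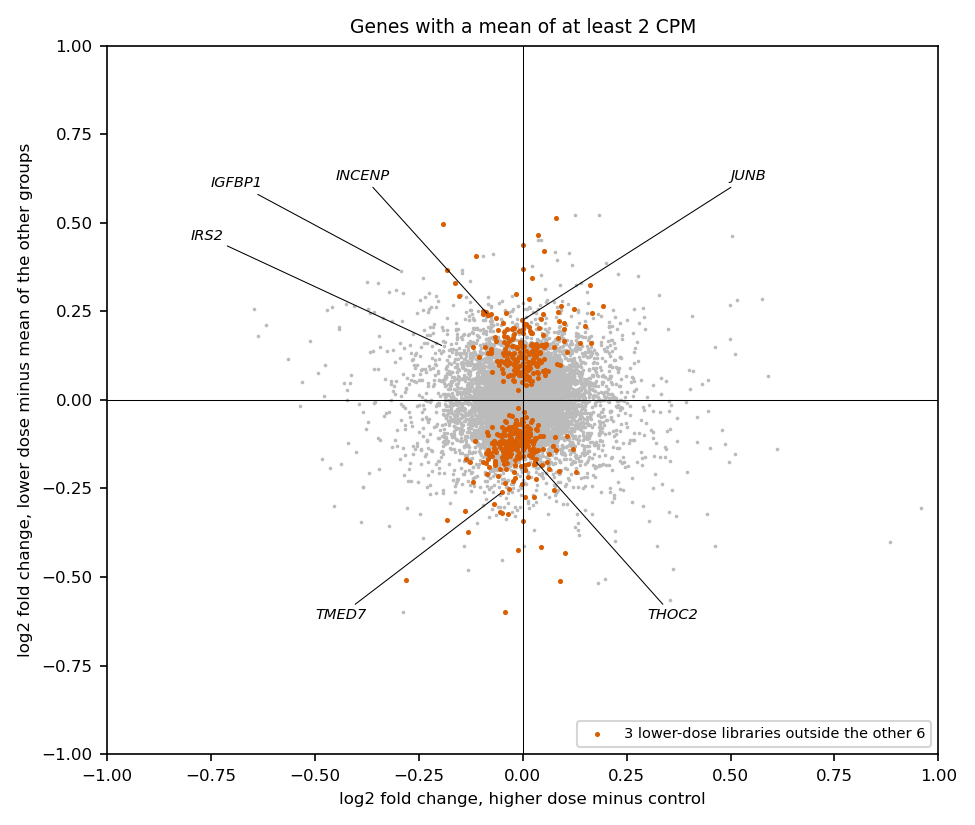
Each point is a tested gene with a mean of at least 2 CPM (11507 drawn, and 4 more lie outside the axes). The y axis gives the log2 fold change of the lower dose against the mean of the other groups and the x axis that of the higher dose against control; the 452 orange genes, whose 3 lower-dose libraries lie outside the other 6, sit above and below 0 near the vertical line, mostly within 0.5 on the log2 scale.

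JUNB, which encodes an AP-1 transcription factor induced early after growth stimuli, had the smallest p among genes above 2 CPM whose lower-dose libraries all lay above the rest. It lies on chromosome 19 from 12791496 to 12793315 (hg38, GENCODE 29), and 14.2% of its transcript overlaps or matches HOOK2. JUNB was measured at 47.3, 45.6 and 48.6 CPM in control 1 to 3, 57.1, 53.9 and 54.3 CPM at the lower dose and 47.1, 49.8 and 44.5 CPM at the higher dose. The 3 lower-dose libraries exceeded the highest of the other 6, which was higher dose 2. The log2 fold change was 0.22 ± 0.05 (SE), or 1.17-fold with a 95% interval of 1.08 to 1.26, and did not pass (adjusted p = 0.659, edgeR quasi-likelihood, Benjamini-Hochberg). It was the same size against either group, at 0.22 ± 0.06 against control and 0.22 ± 0.06 against the higher dose (SE).

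SOCS3, a feedback inhibitor of cytokine and insulin receptor signalling (chromosome 17, 78356778 to 78360077), was measured at 15.7, 16.01 and 14.2 CPM in control 1 to 3, 19.2, 16.5 and 18.8 CPM at the lower dose and 13.6, 11.6 and 15.8 CPM at the higher dose. Lower dose 2 lay within 1 CPM of control 2, and the other lower-dose libraries lay further up. Its log2 fold change was 0.33 ± 0.09, with 0.25 ± 0.10 against control and 0.41 ± 0.10 against the higher dose (SE). RRAD, a small RAS-related GTPase first found overexpressed in muscle in type II diabetes (chromosome 16, 66921679 to 66925644), was measured at 132, 127 and 105 CPM in control 1 to 3, 136, 137 and 143 CPM at the lower dose and 123, 118 and 100.2 CPM at the higher dose. Its lower-dose libraries were close together, while library 3 was the lowest of each other group, and the log2 fold change was 0.24 ± 0.06 (SE). Both genes missed the threshold (adjusted p = 0.659, edgeR quasi-likelihood, Benjamini-Hochberg).

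INCENP, the scaffold of the chromosomal passenger complex that holds Aurora B at centromeres, stood at 62.5, 63.2 and 59.4 CPM in control 1 to 3, 78.4, 68.3 and 65.7 CPM at the lower dose and 64.99, 54.6 and 55.1 CPM at the higher dose. Lower dose 1 was the highest by far, and lower dose 3 lay within 1 CPM of higher dose 1, so the gap to the other groups was narrow. The log2 fold change was 0.24 ± 0.06 (SE). FBRS, which encodes fibrosin, stood at 31.1, 33.1 and 34.01 CPM in control 1 to 3, 39.2, 36.9 and 37.99 CPM at the lower dose and 32.5, 33.8 and 32.4 CPM at the higher dose, and here the lowest lower-dose library lay almost 3 CPM above the highest of the rest. FBXL18, an F-box subunit of a ubiquitin ligase, stood at 37.3, 36.4 and 35.2 CPM in control 1 to 3, 46.9, 44.2 and 39.9 CPM at the lower dose and 38.2, 38.8 and 38.6 CPM at the higher dose, and lower dose 3 was close to the higher dose. HELZ2, a helicase known as a coactivator of nuclear receptors, stood at 293, 299 and 264 CPM in control 1 to 3, 316, 322 and 302 CPM at the lower dose and 285, 270.1 and 264 CPM at the higher dose. The lipase maturation factor gene LMF2 (log2 fold change 0.16 ± 0.04) and NEURL1B, a ubiquitin ligase for Notch ligands (0.15 ± 0.04, SE), also lay above the other 6 libraries throughout. The adjusted p of each of these genes was 0.659 (edgeR quasi-likelihood, Benjamini-Hochberg).

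**Figure D2:**
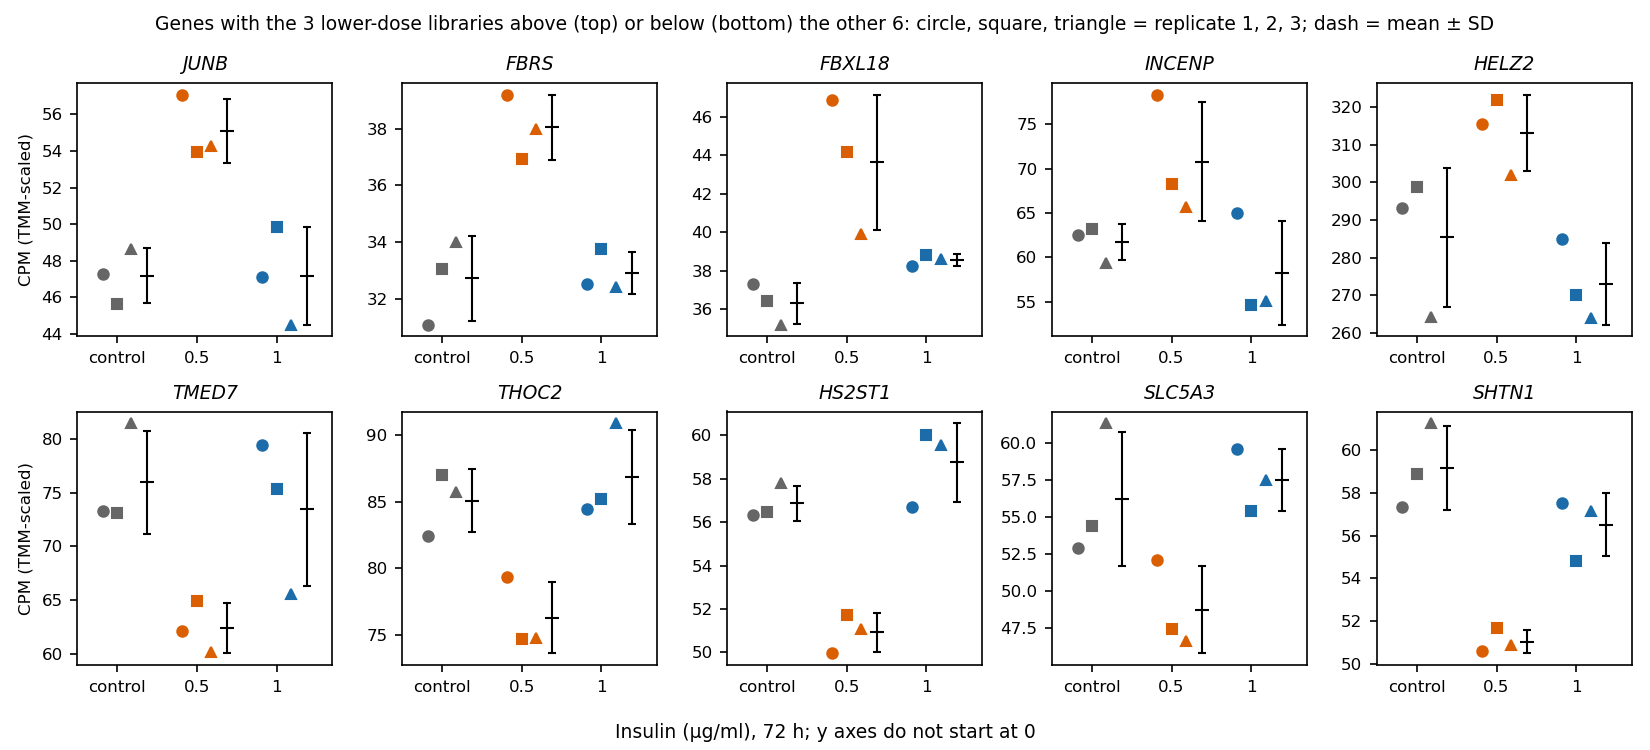
TMM-scaled CPM of 10 genes in each of the 9 libraries (circle, square and triangle for replicates 1, 2 and 3; dash and bar for mean ± SD), by insulin concentration; the upper row shows JUNB and 4 more genes above, the lower row TMED7 and 4 more genes below, the other 6 libraries. JUNB lies between 53.9 and 57.1 CPM at the lower dose and between 44.5 and 49.8 CPM elsewhere, and y axes do not start at 0.

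On the lower side, TMED7, a cargo receptor of the p24 family that moves proteins from the endoplasmic reticulum to the Golgi (chromosome 5, 115613508 to 115632992), had the smallest p. It was measured at 73.3, 73.1 and 81.5 CPM in control 1 to 3, 62.1, 64.9 and 60.2 CPM at the lower dose and 79.4, 75.4 and 65.5 CPM at the higher dose. The lower-dose libraries were the lowest 3 of the 9, with higher dose 3 less than 1 CPM above lower dose 2. The log2 fold change was -0.26 ± 0.06 (SE), or 0.835-fold with a 95% interval of 0.766 to 0.909 (adjusted p = 0.659, edgeR quasi-likelihood, Benjamini-Hochberg). Of its transcript, 24.9% is shared with the read-through gene TMED7-TICAM2, so its count is uncertain to that extent.

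THOC2, a subunit of the THO complex of mRNA export, stood at 82.4, 86.98 and 85.7 CPM in control 1 to 3, 79.4, 74.7 and 74.8 CPM at the lower dose and 84.5, 85.2 and 90.9 CPM at the higher dose. HS2ST1, which adds sulfate to heparan sulfate chains, stood at 56.3, 56.5 and 57.8 CPM in control 1 to 3, 49.96, 51.7 and 51.1 CPM at the lower dose and 56.7, 60.03 and 59.6 CPM at the higher dose, and 10.8% of its transcript is shared with AC093155.3. In HS2ST1 the lower-dose libraries spanned less than 2 CPM and lay more than 4 CPM below the rest. SLC5A3, the sodium-coupled transporter of the osmolyte myo-inositol, stood at 52.9, 54.4 and 61.3 CPM in control 1 to 3, 52.1, 47.5 and 46.7 CPM at the lower dose and 59.6, 55.4 and 57.5 CPM at the higher dose, and lower dose 1 was less than 1 CPM under control 1. SHTN1, which encodes the axon growth protein shootin, stood at 57.3, 58.9 and 61.2 CPM in control 1 to 3, 50.6, 51.7 and 50.9 CPM at the lower dose and 57.5, 54.8 and 57.1 CPM at the higher dose, without overlap, and shares 16.2% of its transcript with ENO4. PIK3C2A, a class II phosphoinositide 3-kinase, stood at 138, 146 and 149 CPM in control 1 to 3, 132, 132 and 122 CPM at the lower dose and 137, 142 and 144 CPM at the higher dose. The log2 fold changes were -0.17 ± 0.04 for THOC2, -0.18 ± 0.05 for HS2ST1, -0.22 ± 0.06 for SLC5A3, -0.18 ± 0.05 for SHTN1 and -0.15 ± 0.04 for PIK3C2A (SE). The other 4 genes named on this side were SEC31B, a coat protein of COPII vesicles that shares part of its transcript with AL133352.1 (-0.32 ± 0.09), the splicing factor gene LUC7L3 (-0.15 ± 0.04), TMEM50B (-0.22 ± 0.06) and the peptidase gene NAALAD2 (-0.34 ± 0.10, SE). None of these passed (adjusted p = 0.659 for each, edgeR quasi-likelihood, Benjamini-Hochberg).

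The smallest p of all belonged to LOC107987373, a locus with no entry in the annotations used here, and it rested mainly on lower dose 2. Its counts were 6, 9 and 9 in control, 38, 197 and 7 at the lower dose and 14, 8 and 12 at the higher dose. Lower dose 2 was far above the rest and lower dose 3 was among the lowest, so the groups overlapped, and the fitted log2 fold change of 3.09 ± 0.60 (SE) does not describe the group. With lower dose 3 left out it was the 1 gene called. GSTT2B, a glutathione transferase gene, stood at 13.5, 12.6 and 13.4 CPM in control 1 to 3, 18.2, 16.2 and 19.00 CPM at the lower dose and 12.96, 16.6 and 12.2 CPM at the higher dose and overlapped through higher dose 2. All of its transcript (100%) matches its copy GSTT2, so reads of the pair cannot be told apart. Neither passed (adjusted p = 0.659, edgeR quasi-likelihood, Benjamini-Hochberg).

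Genes of the insulin receptor and its adaptors were compared next, from a list of 20 of which 17 were tested. Of those, 13 lay above 0 and the median log2 fold change was 0.02, beside 50.8% above 0 and a median of 0.00 over all tested genes. The 2 at an unadjusted p under 0.05, where all genes gave 3.71% on that side, were IRS2 and GAB2, an adaptor for growth factor receptors. The count above 0 rested on lower dose 1: without it 9 of 17 lay above 0, 1 stood at an unadjusted p under 0.05 and the median was 0.01. INSR, the insulin receptor gene, was measured at 12.7, 13.4 and 15.3 CPM in control 1 to 3, 15.98, 14.3 and 14.8 CPM at the lower dose and 14.3, 12.9 and 15.8 CPM at the higher dose, with a log2 fold change of 0.09 ± 0.09 (SE). Groups overlapped. IGF1R, the receptor of IGF1, stood at 67.9, 66.8 and 70.8 CPM in control 1 to 3, 73.5, 63.7 and 63.2 CPM at the lower dose and 66.1, 61.4 and 66.2 CPM at the higher dose, and lower dose 1 was the highest of the 9 while lower dose 2 and 3 lay among the lower ones. Its log2 fold change was 0.01 ± 0.05, and that of IRS1, the first described receptor substrate, was 0.02 ± 0.07 (SE). The 95% intervals were 0.941 to 1.21-fold for INSR, 0.929 to 1.09-fold for IGF1R and 0.912 to 1.13-fold for IRS1. Over the 84 ways to choose 3 of 9 libraries, the exact two-sided permutation p of INSR was 0.274, that of IGF1R 0.976, that of IRS1 0.786 and that of IRS2 0.167.

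IRS2, the substrate whose gene FOXO factors induce when insulin is low, was measured at 47.1, 51.5 and 41.7 CPM in control 1 to 3, 48.95, 50.6 and 46.4 CPM at the lower dose and 43.9, 38.6 and 40.5 CPM at the higher dose. Control 2 was the highest library, and all 3 higher-dose libraries lay below all 3 lower-dose ones. The log2 fold change was 0.15 ± 0.06 against the mean of the others, made up of 0.06 ± 0.07 against control and 0.25 ± 0.08 against the higher dose (SE). The comparison with the mean therefore rested on the higher dose for this gene. In a list of FOXO factors and genes counted as their insulin-repressed targets, 13 of 23 tested lay above 0, with a median of 0.02. IRS2, IGFBP1 and PCK2, an enzyme of gluconeogenesis, stood at an unadjusted p under 0.05 on the higher side (all genes: 3.71%). With lower dose 1 left out, 17 lay above 0 with a median of 0.05.

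In the PI3K, AKT and mTOR pathway 18 of 31 tested genes lay above 0, with a median of 0.03. EIF4EBP1, the translation repressor that mTORC1 phosphorylates, stood at 85.2, 89.8 and 83.5 CPM in control 1 to 3, 96.4, 92.1 and 91.5 CPM at the lower dose and 89.7, 83.6 and 83.6 CPM at the higher dose, without overlap, and RPTOR, which defines mTORC1, had a log2 fold change of 0.15 ± 0.07. PIK3CA, a catalytic subunit of PI3K, was at -0.15 ± 0.06 and RICTOR, which defines mTORC2, at -0.14 ± 0.06 (SE). These 4 were the members at an unadjusted p under 0.05, and they lay on both sides (all genes: 3.71% above 0 and 3.68% below). Leaving out lower dose 1 gave 16 of 31 above 0, a median of 0.01 and 0 members at that threshold. Of 20 feedback inhibitors 9 lay above 0, with a median of -0.02. Besides SOCS3, SOCS1 of the same family (0.39 ± 0.14) and TRIB3, a pseudokinase that binds AKT (0.16 ± 0.08, SE), stood at an unadjusted p under 0.05 above 0 (all genes: 3.71%). SPRED1, an inhibitor of the RAS pathway (-0.13 ± 0.06, SE), stood below 0 at that threshold (all genes: 3.68%). The count above 0 was 9 of 20 and the median -0.02 without lower dose 1 as well, with 2 members above 0 and 0 below at that threshold.

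In a list of IGF binding proteins, the proteases that cleave them and the genes STC1 and STC2, 10 of 12 tested genes lay above 0, with a median of 0.06. IGFBP1, a secreted IGF carrier repressed by insulin through FOXO, was measured at 6.98, 5.93 and 4.19 CPM in control 1 to 3, 6.58, 6.57 and 6.64 CPM at the lower dose and 5.20, 4.92 and 3.80 CPM at the higher dose. The lower-dose libraries lay within 0.1 CPM of each other, below control 1 and above the other 5. The log2 fold change was 0.36 ± 0.15, with 0.22 ± 0.17 against control and 0.51 ± 0.17 against the higher dose (SE). IGFBP7, a matrix-bound member and by far the most abundant, stood at 1977, 1882 and 1778 CPM in control 1 to 3, 2077, 1961 and 2075 CPM at the lower dose and 1936, 1906 and 1807 CPM at the higher dose, where control 1 lay above lower dose 2. Together with IGFBP6 (0.13 ± 0.06, SE) these were the 3 members at an unadjusted p under 0.05, all above 0 (all genes on that side: 3.71%). Each list was scored per library by averaging its members' log2 CPM, with every gene centred on its own mean. The scores of this list were 0.05, 0.08 and 0.06 at the lower dose and ran from -0.08 to 0.01 elsewhere. It was the only one of 37 lists whose lower-dose scores all lay outside the other 6. Of all tested genes, 1.84% had all 3 lower-dose libraries above the other 6 and 2% below, so 1 list of 37 was near the share of single genes. Leaving out lower dose 1 gave 9 of 12 above 0 and a median of 0.09.

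Immediate early genes, which growth factors and stress induce within minutes, had 25 of 30 tested members above 0 and a median of 0.07. After JUNB, KLF2, a transcription factor gene, stood at 94.7, 102 and 80.05 CPM in control 1 to 3, 116, 104 and 92.8 CPM at the lower dose and 97.4, 82.02 and 82.3 CPM at the higher dose, and lower dose 3 lay below control 1 and 2 and higher dose 1. FOSL1, an AP-1 partner of JUNB, stood at 117, 128 and 107 CPM in control 1 to 3, 138, 134 and 127 CPM at the lower dose and 128, 115 and 118 CPM at the higher dose, with a log2 fold change of 0.16 ± 0.05, and ATF3, a stress-induced factor, was at 0.20 ± 0.08 without overlap. KLF4 (0.26 ± 0.10, SE) completed the 5 at an unadjusted p under 0.05, all above 0 (all genes on that side: 3.71%). Without lower dose 1 the number above 0 was 17 of 30, close to the share over all genes, while 7 stood at an unadjusted p under 0.05 above 0.

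NF-kappaB subunits, inhibitors and cytokines had 23 of 27 tested members above 0 and a median of 0.10. Members at an unadjusted p under 0.05 numbered 8, all above 0 (all genes on that side: 3.71%). For 4 members (all genes: 1.84%) the lower-dose libraries lay above the other 6. NFKBIB, which encodes the inhibitor IκBβ, was measured at 12.6, 12.7 and 12.7 CPM in control 1 to 3, 14.4, 13.7 and 15.7 CPM at the lower dose and 12.5, 11.4 and 11.8 CPM at the higher dose. All 3 lower-dose libraries were higher than the rest, and the log2 fold change was 0.25 ± 0.08 (SE). RELA, the p65 subunit, stood at 82.8, 90.98 and 88.2 CPM in control 1 to 3, 96.5, 91.99 and 93.02 CPM at the lower dose and 88.3, 87.7 and 83.4 CPM at the higher dose, with lower dose 2 just 1 CPM above control 2. The subunit genes NFKB1 (0.11 ± 0.05) and NFKB2 (0.12 ± 0.05), the adhesion gene ICAM1 (0.20 ± 0.08) and the cytokine gene LIF (0.13 ± 0.06, SE) were of like size with overlap. PTGS2, the inducible cyclooxygenase gene known for its part in ovulation, lay near the detection limit at 0.264, 0.346 and 0.292 CPM in control 1 to 3, 0.603, 0.770 and 0.541 CPM at the lower dose and 0.500, 0.397 and 0.0493 CPM at the higher dose. Its log2 fold change of 1.03 ± 0.42 (SE) rests on those few counts. Without lower dose 1 the list had 24 above 0, 11 at an unadjusted p under 0.05 and a median of 0.12.

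Interferon response genes had 38 of 43 tested members above 0 and a median of 0.08. At an unadjusted p under 0.05 stood 9 of them, all above 0 (all genes on that side: 3.71%). ISG15, a ubiquitin-like modifier, was measured at 343, 281 and 216 CPM in control 1 to 3, 339, 353 and 312 CPM at the lower dose and 345, 268 and 229 CPM at the higher dose. Library 1 was the highest and library 3 the lowest of both other groups, and the lower-dose libraries reached 353 CPM and overlapped the upper end of both. TAP1, the peptide transporter of antigen presentation, was at 0.15 ± 0.05, the transcription factor gene IRF7 at 0.22 ± 0.08 and IFI6, a mitochondrial survival protein, at 0.12 ± 0.04 (SE). List scores were 0.10, -0.01 and -0.16 in control, -0.04, 0.18 and 0.08 at the lower dose and 0.09, -0.07 and -0.16 at the higher dose. Without lower dose 1 all 43 lay above 0, 24 at an unadjusted p under 0.05 (all genes in that fit: 512 of 12668 on this side), and the median was 0.13. TRIM22, an antiviral ubiquitin ligase of that list, stood at 131, 131 and 114 CPM in control 1 to 3, 100.4, 155 and 146 CPM at the lower dose and 117, 116 and 110.4 CPM at the higher dose, and lower dose 1 was the lowest of all 9. With that library left out, edgeR's quasi-likelihood test with Benjamini-Hochberg adjustment called 2 genes higher, TRIM22 and NDRG1, a stress and hypoxia gene at 134, 149 and 134 CPM in control 1 to 3, 117, 165 and 163 CPM at the lower dose and 123, 128 and 131 CPM at the higher dose. In NDRG1 lower dose 1 was again the lowest of all, and both genes were named after their values were seen.

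**Figure D3:**
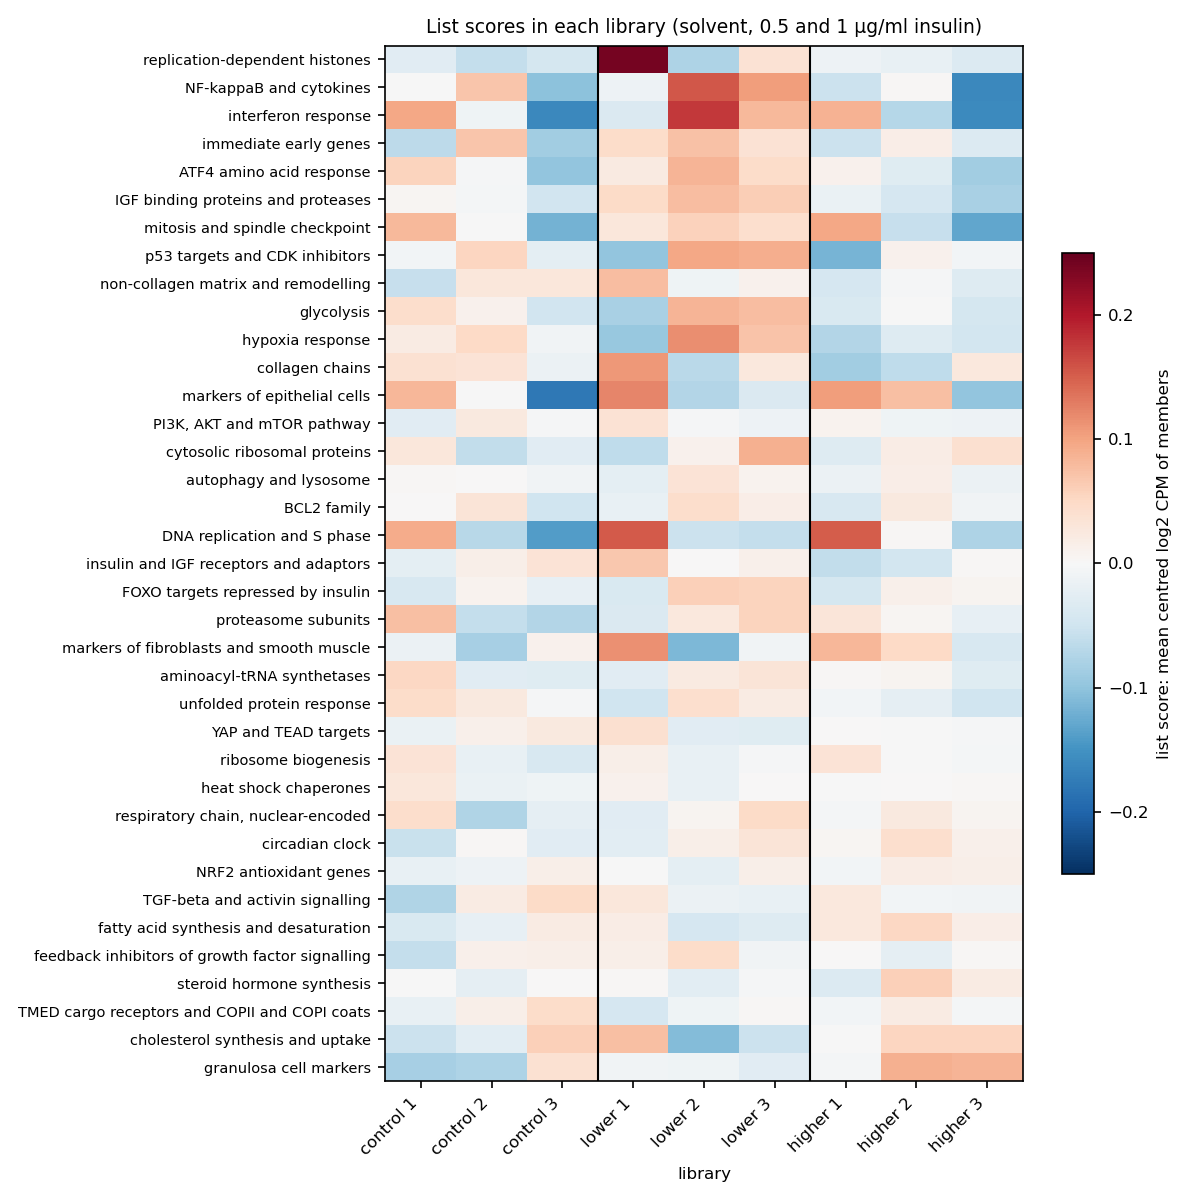
Score of each list (mean centred log2 CPM of its members, colour scale) in each of the 9 libraries, ordered by median log2 fold change in the comparison. The list of IGF binding proteins and proteases scores 0.05 to 0.08 in the 3 lower-dose libraries and 0.01 or less elsewhere. For histones, S phase, cholesterol, glycolysis, hypoxia and p53 target genes lower dose 1 has the opposite colour to lower dose 2.

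Of cholesterol synthesis and uptake genes, many of them targets of SREBP2, 9 of 28 tested lay above 0, with a median of -0.04. Members at an unadjusted p under 0.05 numbered 6 below 0 (all genes: 3.68%) and 1 above, the mevalonate kinase gene MVK (0.15 ± 0.07, SE). IDI1, an isomerase that makes the isoprenoid unit from which sterols are built, stood at 83.2, 81.8 and 90.2 CPM in control 1 to 3, 81.2, 68.4 and 75.8 CPM at the lower dose and 83.1, 86.3 and 82.5 CPM at the higher dose, with all lower-dose libraries below the rest and lower dose 2 the lowest. HMGCS1, the synthase at the entry of the pathway, stood at 235, 243 and 295 CPM in control 1 to 3, 238, 220.2 and 236 CPM at the lower dose and 246, 274 and 282 CPM at the higher dose. Lower dose 1 and 3 lay above control 1, so the groups overlapped. MSMO1 and SC5D, later enzymes of the pathway, were at -0.12 ± 0.05 and -0.10 ± 0.04, and STARD4, a sterol carrier, was at -0.11 ± 0.04 (SE). The list's score was 0.08 in lower dose 1, the highest of all libraries, and -0.11 and -0.05 in lower dose 2 and 3. When lower dose 1 was left out, 2 of 28 lay above 0, 13 stood at an unadjusted p under 0.05 below 0 (all genes in that fit: 514 of 12668 on this side) and the median was -0.09.

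In fatty acid synthesis and desaturation 7 of 23 genes lay above 0, and the median was -0.01. ACSL3, which activates long-chain fatty acids, was at -0.13 ± 0.05 and ME1, a source of NADPH, at -0.10 ± 0.05 (SE). They were the only 2 at an unadjusted p under 0.05 (all genes below 0: 3.68%). Without lower dose 1 the median was -0.06, with 7 below 0 at that threshold (all genes in that fit: 514 of 12668 on this side). Glycolysis genes lay above 0 in 19 of 23 cases, with a median of 0.03. PFKL, the liver-type phosphofructokinase, stood at 193, 193 and 174 CPM in control 1 to 3, 194, 208 and 202 CPM at the lower dose and 183, 187 and 180.2 CPM at the higher dose, with lower dose 1 less than 1 CPM above control 2. Glycolysis scores were -0.08, 0.08 and 0.08 in the lower-dose libraries. Without lower dose 1 there were 20 of 23 above 0 and the median was 0.10. Of these, 12 stood at an unadjusted p under 0.05 (all genes in that fit: 512 of 12668 on this side). Hypoxia response genes went the same way, with scores of -0.10, 0.12 and 0.07 and 19 of 28 above 0 with a median of 0.03. In the fit without lower dose 1, 22 of 28 hypoxia genes lay above 0, 11 of them at an unadjusted p under 0.05, and the median was 0.09. Of nuclear-encoded respiratory chain genes 22 of 40 lay above 0, with a median of 0.00, and COX6A1, a subunit of cytochrome oxidase, was at 0.12 ± 0.04 (SE). With lower dose 1 left out, 31 of 40 of these lay above 0 and the median was 0.03.

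Targets of ATF4, the factor of amino acid shortage, had 27 of 32 tested members above 0 and a median of 0.06. SESN2, a leucine sensor upstream of mTORC1, was measured at 43.7, 49.7 and 43.4 CPM in control 1 to 3, 45.03, 53.3 and 51.3 CPM at the lower dose and 42.4, 44.9 and 38.5 CPM at the higher dose, and lower dose 1 lay within the control range. SLC7A5, a transporter of large neutral amino acids, was at 0.14 ± 0.06, CEBPB, a partner of ATF4, at 0.13 ± 0.05 and SLC38A2, another transporter, on the other side at -0.12 ± 0.04 (SE). At an unadjusted p under 0.05 stood 6 members above 0 (all genes: 3.71%) and 1 below (all genes: 3.68%). For ATF4 targets, lower dose 1 left out, these counts were 9 and 1, with 28 of 32 above 0 and a median of 0.07. CBS, an enzyme of the transsulfuration pathway with a near-identical copy, CBSL, was high in lower dose 2 alone, at 22.1 CPM against 9.98 to 12.5 CPM in the other 8 libraries. Cytosolic ribosomal protein genes lay above 0 in 29 of 49 cases with a median of 0.02, and 47 of 49 above 0 with a median of 0.05 without lower dose 1. Members were few at an unadjusted p under 0.05, namely RPLP1 (0.10 ± 0.04) and RPL13 (0.10 ± 0.04, SE). Unfolded protein response genes (14 of 27 above 0), proteasome subunits (19 of 31) and ribosome biogenesis genes (17 of 32) had medians of 0.01, 0.02 and 0.01, with 0 members at an unadjusted p under 0.05 above 0. The counts differed without lower dose 1: 21 of 27 unfolded protein response genes lay above 0, 6 of them at that threshold, with a median of 0.05. Proteasome subunits then had 29 of 31 above 0, 2 of them at that threshold, and a median of 0.04, and ribosome biogenesis genes 16 of 32 above 0. In the last list DDX21, a nucleolar helicase, stood at 157, 156 and 167 CPM in control 1 to 3, 149, 147 and 147 CPM at the lower dose and 159, 157 and 159 CPM at the higher dose, all lower-dose libraries below the rest.

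TMED cargo receptors and vesicle coats had 7 of 29 tested members above 0 and a median of -0.03. TMED5 was at -0.13 ± 0.05 and SEC24A, a cargo adaptor of COPII, at -0.10 ± 0.05, while TMED1 was at 0.19 ± 0.08 (SE), so members of the p24 family lay on both sides. Without lower dose 1, 10 of 29 lay above 0.

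Of mitosis and spindle checkpoint genes 26 of 30 lay above 0, with a median of 0.06, and 26 with a median of 0.07 without lower dose 1. CDCA8, another passenger complex subunit, was at 0.16 ± 0.07 and CENPA, the centromeric histone, at 0.20 ± 0.09 (SE). Among genes of DNA replication and S phase, 23 of 35 lay above 0, with none at an unadjusted p under 0.05, and a median of 0.02. Their scores were 0.15, -0.05 and -0.06 at the lower dose, 0.09, -0.07 and -0.14 in control and 0.15, 0.00 and -0.08 at the higher dose, so library 1 was the highest of each group. When lower dose 1 was left out, 7 of 35 lay above 0 and the median was -0.07. The 6 tested replication-dependent histone genes scored 0.24 in lower dose 1, whereas the remaining 8 libraries ran from -0.08 to 0.04. Targets of p53 and inhibitors of cyclin-dependent kinases lay above 0 in 18 of 27 cases and had a median of 0.05, with lower-dose scores of -0.10, 0.10 and 0.09. Members above 0 at an unadjusted p under 0.05 numbered 4 (all genes: 3.71%). Without lower dose 1 they numbered 12 (all genes in that fit: 512 of 12668 on this side), 23 of 27 lay above 0 and the median was 0.10. BBC3, the cell death gene PUMA, was at 0.16 ± 0.07 and BAX, a pore-forming partner, at 0.10 ± 0.05 (SE).

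**Figure D4:**
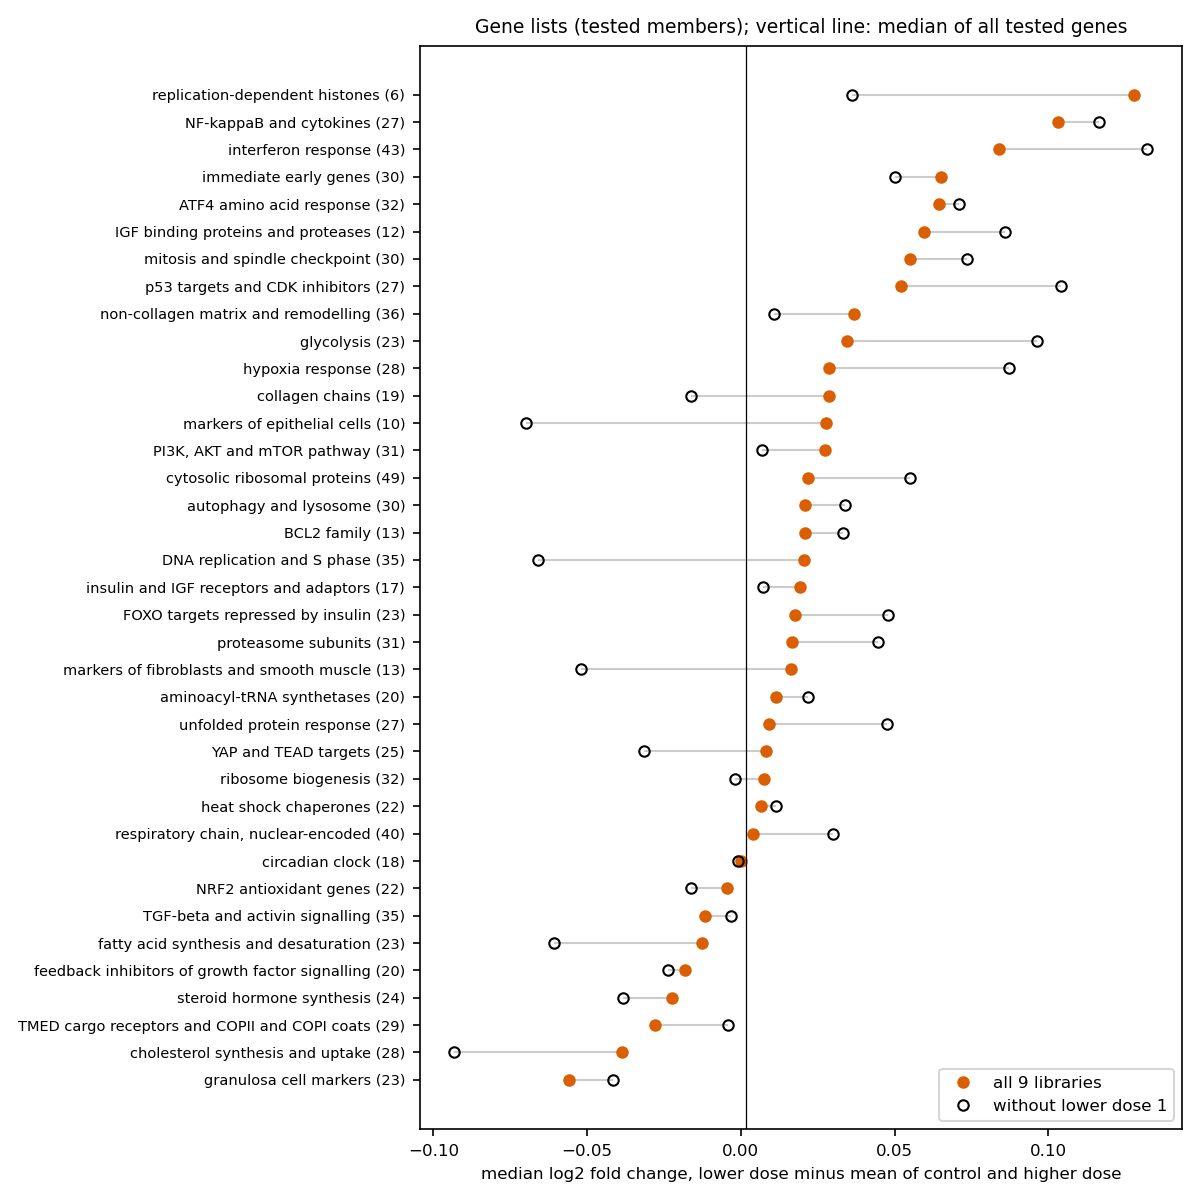
Median log2 fold change of the lower dose against the mean of the other groups for 37 lists (tested members in parentheses), with all libraries (filled) and without lower dose 1 (open); the vertical line is the median of all tested genes. NF-kappaB genes have medians of 0.10 and 0.12, S phase genes of 0.02 and -0.07, and cholesterol genes of -0.04 and -0.09.

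Granulosa cell markers had 8 of 23 tested members above 0 and the lowest median of the 37 lists, -0.06 (6 of 23 and -0.04 without lower dose 1). That median was -0.02 against control alone and -0.06 against the higher dose alone, so it rested mainly on the higher dose. NR5A1, the steroidogenic factor SF-1, was the 1 member without overlap, at 63.2, 57.6 and 57.8 CPM in control 1 to 3, 66.1, 64.2 and 65.01 CPM at the lower dose and 62.99, 60.1 and 58.7 CPM at the higher dose, with a log2 fold change of 0.12 ± 0.05 (SE). FOXL2, the transcription factor that maintains granulosa identity, was at 0.01 ± 0.07, the FSH receptor gene FSHR at -0.14 ± 0.10, AMH at -0.06 ± 0.10 and CYP19A1, which encodes aromatase, at -0.17 ± 0.12 (SE). Libraries of the 3 groups overlapped for these 4. FSHR stood at 15.2, 16.4 and 22.2 CPM in control 1 to 3, 16.1, 16.6 and 18.2 CPM at the lower dose and 17.6, 19.5 and 21.4 CPM at the higher dose, and library 3 was the highest of each group. In steroid hormone synthesis 10 of 24 genes lay above 0, and the median was -0.02 (10 of 24 and -0.04 without lower dose 1). TSPO, a protein of the outer mitochondrial membrane linked to cholesterol handling, stood at 149, 132 and 133 CPM in control 1 to 3, 149.7, 149.6 and 157 CPM at the lower dose and 142, 144 and 136 CPM at the higher dose, and the lower-dose libraries exceeded control 1 by less than 1 CPM at the low end. Collagen chains had 14 of 19 above 0 with a median of 0.03, and 6 of 19 with a median of -0.02 without lower dose 1. In the matrix list, with 26 of 36 above 0 (22 of 36 without lower dose 1), FBLN5, an elastic fibre protein, stood at 1.43, 1.78 and 1.32 CPM in control 1 to 3, 2.16, 2.41 and 2.36 CPM at the lower dose and 1.45, 1.84 and 2.07 CPM at the higher dose, a low level without overlap.

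Across the 37 lists with at least 5 tested members, 29 medians lay above 0 and 8 below, from -0.06 to 0.13. Some of these rested mainly on the higher dose. Against control and against the higher dose, medians were 0.00 and 0.08 for collagen chains and 0.01 and 0.05 for hypoxia genes. They were 0.00 and -0.06 for steroid synthesis and 0.00 and -0.05 for fatty acid synthesis. In other lists both were alike, at 0.06 and 0.06 for immediate early genes and 0.08 and 0.10 for interferon response genes. Lower dose 1 had a score on the other side of 0 from lower dose 2 and 3 in 24 lists, and a score outside the range of the other 8 libraries in 15. Among markers of other cell types with at least 5 tested members, fibroblast and smooth muscle scores were 0.11, -0.11 and -0.01 at the lower dose. Epithelial scores were 0.12, -0.07 and -0.04. For the epithelial list this was not particular to lower dose 1: the score was 0.08 in control 1 and 0.11 in higher dose 1, the highest of each group. The fibroblast and smooth muscle score of higher dose 1 was 0.08, also the highest of its group. In control that score was -0.01 in control 1 and 0.01 in control 3, so library 1 was not the highest there. The part of lower dose 1 in the list results was not tested beyond leaving it out. Leaving out the other lower-dose libraries moved medians as well. Without lower dose 2 the median was 0.009 for cholesterol genes, 0.012 for glycolysis and 0.042 for interferon response genes. Without lower dose 3 it was -0.007 for hypoxia genes and -0.020 for cytosolic ribosomal proteins. For NF-kappaB genes the lowest median with any 1 library left out was 0.062, without lower dose 2. Members above 0 at an unadjusted p under 0.05 also varied with the library left out. They ran from 0 to 12 for glycolysis, 0 to 11 for hypoxia genes, 0 to 12 for p53 targets and 3 to 24 for interferon response genes. The upper end of each of these ranges was the count without lower dose 1.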

How the data were processed

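The authors deposited raw read counts per gene symbol for the 9 libraries, all whole numbers, used unmodified. The build hg38 and the tools Trimmomatic, HTSeq and DESeq (no versions) are listed per the submitters' processing notes. For the aligner, annotation, strand setting and handling of multi-mapped reads, details were not given in the sources used here. An FPKM table from the authors was not used. Genes with at least 10 counts in 3 or more libraries were fitted in edgeR 4.0.16 (R 4.3.3) with TMM scaling and 3 group means, with the contrast of the lower dose against the mean of the other groups. Benjamini-Hochberg adjustment covered 12697 genes, with a threshold of 0.05, two-sided. For the test beyond both groups, the larger one-sided p was taken in each direction and the smaller of these doubled. The pipeline was tested on simulated data. Positions and shared transcript sequence (at least 98% identity over 100 bases, blastn 2.17.0) come from GENCODE 29, which holds 97.3% of the symbols.

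Some genes that the rule below names are not reported here. The 40 gene lists and the comparison were chosen with earlier results of these data known. Named genes are, per direction, the 10 of smallest p with at least 2 CPM whose lower-dose libraries lie outside the other 6, the 3 of smallest p in either test, the member of smallest p in each of 37 lists with at least 5 tested members, the receptor and substrate genes and 4 granulosa markers. Other list members named in the text were chosen after their values were seen, mostly for an unadjusted p under 0.05. Same-numbered libraries were not treated as pairs, since their deviations correlated only between -0.0018 and 0.156. Yet 7 of 9 libraries correlated best with their own number, so this check does not settle whether pairing can be ignored. Whether equal numbers mark a shared batch is not stated in the labels, and the replicate block was run as an alternative. Alternatives were DESeq2 1.42.0, RLE size factors, 3 other filters, a model of 2 groups, a replicate block and leaving out each library; the counts of list members without lower dose 1 were added after seeing the data.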

Additional observations from a re-analysis of the deposited data

Results flagged for a closer look

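In the 6 control and higher-dose libraries, 1 library stood far from the other 5 for 4 of the 61 named genes, by the ratio of its gap to the whole range (above 0.625). Chance gives this in about 1 in 20 groups. GSTT2B, a glutathione transferase gene, had a ratio of 0.673, with higher dose 2 at 16.6 CPM and the others between 12.2 and 13.5 CPM. DDX21, a nucleolar helicase, had 0.676, with control 3 at 167 CPM and the others between 156 and 159 CPM. PER3, a circadian clock gene, had 0.667, with control 1 at 14.1 CPM and the others between 16.1 and 17.2 CPM. AMH, the anti-Müllerian hormone gene, had 0.665, with higher dose 3 at 14.0 CPM and the others between 12.1 and 12.7 CPM.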

How the results depend on the processing

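The count of 0 genes called held under DESeq2, RLE size factors, filterByExpr, a filter of 1 CPM, the model of 2 groups and the replicate block. With no filter on low counts the comparison called 9 genes (CBSL, CD99-2, GSTT2B, LOC107987373, MT2A, RRAD, TMED7, U2AF1 and VAMP7), the lower dose lay beyond both other groups for 1, and the higher dose against control gave 3; the cause was not tested. Leaving out 1 library at a time gave 0 to 2 called genes (TRIM22 and NDRG1 without lower dose 1, LOC107987373 without lower dose 3) and 0 to 1 beyond both groups. Genes at an unadjusted p under 0.05 ran from 610 without control 3 to 1287 without control 1, against 938. Genes whose lower-dose libraries lay outside the rest ran from 560 (without control 3) to 1340 (without lower dose 1), against 487, since fewer libraries overlap less often. With the replicate number as a block, 1160 genes stood at an unadjusted p under 0.05, with 0.161 as the lowest Benjamini-Hochberg adjusted p from edgeR. Deviations of same-numbered libraries correlated between -0.0018 and 0.156, and 7 of 9 libraries correlated best with their own number. Over 61 named genes and 16 alternatives, 10 log2 fold changes had the opposite direction. These came from leaving out 1 library in genes near 0, whose ranges were -0.163 to 0.0971 for AMH, -0.0410 to 0.0714 for IRS1, -0.0756 to 0.0586 for FOXL2 and -0.0672 to 0.0455 for IGF1R. Depth limits low genes such as PTGS2, where 0.158 CPM is the zero limit.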

Other observations

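Groups not described above lay close to 0. For autophagy and lysosome genes 18 of 30 tested members lay above 0, and the median log2 fold change was 0.02. ATG12, which is joined to ATG5 when autophagosomes form, lay below the other 6 libraries at the lower dose (-0.15 ± 0.06, SE). NRF2 antioxidant genes had 10 of 22 above 0, and KEAP1, the repressor of NRF2, lay above the other 6 libraries (0.15 ± 0.05, SE). In TGF-beta and activin signalling 16 of 35 lay above 0, the median was -0.01, and SKIL, a SMAD corepressor, lay below the other 6 libraries (-0.12 ± 0.05, SE). YAP and TEAD targets had 14 of 25 above 0 and a median of 0.01, and TEAD1, a DNA-binding partner of YAP, lay below the other 6 (-0.10 ± 0.04, SE). Heat shock chaperones had 12 of 22 above 0 with HSPB1 at 0.11 ± 0.04 (SE), tRNA synthetases 15 of 20 with WARS1 at 0.14 ± 0.05 (SE), and the circadian clock 9 of 18. Without lower dose 1, YAP and TEAD targets had 10 of 25 above 0 and a median of -0.03, autophagy and lysosome genes 23 of 30, tRNA synthetases 16 of 20 and heat shock chaperones 14 of 22 above 0. The counts of the NRF2, TGF-beta and clock lists were 10 of 22, 16 of 35 and 9 of 18 in that setting too. None of these genes passed (adjusted p = 0.659, edgeR quasi-likelihood, Benjamini-Hochberg).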
